A study of Mus musculus with 9 samples.

Results

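The transcripts of p53, its inhibitors and a set of its target genes were followed in mouse embryonic stem cells (ESCs) that carried different numbers of extra Myc copies. The 10 genes were fixed by symbol: Trp53, which encodes p53, its inhibitors Mdm2 and Mdm4, and the targets Cdkn1a, Ccng1, Plk2, Sesn1, Trp53inp1, Zmat3 and Perp, none of them of the BCL2 family. These genes and the gene lists below were chosen with earlier results of these data known. Their counts and medians beside those of all genes are therefore a description only. Each symbol matched 1 of the 35771 rows of the deposited table, and all 10 passed the filter on low counts that left 13424 genes for testing. Every culture was homozygous for iMOS T1-Myc, a switchable allele that adds Myc together with the yellow fluorescent protein EYFP, and carried RERT, an allele that makes recombination depend on 4-hydroxytamoxifen, on a mixed background. Cultures grown on gelatin with LIF received 20 µM of the drug for 24 h, which left a mosaic of cells. EYFP-based sorting 24 h after the drug was removed gave 3 libraries of cells with 2 extra copies of Myc and 3 libraries of cells with no extra copy, here called the induced populations. Sorted cells of uninduced cultures of the same line gave another 3 libraries; the labels repeat the treatment text for these, and their titles were followed. The design calls the 3 libraries of a group biological replicas, and nothing says whether they were separate cultures, so the p-values measure the spread between these libraries only. The 3 comparisons share groups in pairs and are not independent of each other. By the titles, both induced populations had received the drug and the uninduced cells had not. In the comparison of 2 extra copies with uninduced cells, drug exposure and extra Myc therefore cannot be told apart. Cells with no extra copy differ from uninduced cells in drug exposure and in having come from a mosaic culture. These cannot be told apart either, and the Myc level of these cells was also higher, as given below.

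p53 is a transcription factor that responds to DNA damage, nucleolar stress and oncogene activity. Its protein is held down mainly by Mdm2, a ubiquitin ligase, and by Mdm4, a related protein that masks its activation domain; Mdm2 is itself a p53 target, which closes a negative feedback loop. Because p53 is controlled largely through protein stability and modification, its mRNA level is a poor guide to its activity, and transcripts of its targets are commonly read instead. High Myc activity is known to engage p53, in part through ARF and through ribosomal proteins that bind Mdm2. ESCs transcribe Trp53 at a high level and have a short G1 phase with little p21, the product of Cdkn1a.

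RefSeq promoter windows on GRCm38.p6 were found for 7 of the 10 genes, 10 windows in all, each running from 250 bases before a start site to 50 after it. They were searched on both strands for the consensus p53 motif, a 10-base unit that p53 binds in pairs, and for CACGTG, the motif bound by Myc with Max. The single p53 unit was in 5 of the 10 windows and in 8.36% of the 32851 windows of all genes. A pair of adjacent units with at most 1 mismatch in 20 bases was in 2 of the 10 windows, those of Ccng1 and of an upstream start of Cdkn1a, and in 29 (0.0883%) of all windows. CACGTG was in 1 of the 10 windows, that of Trp53, 11 bases after the start, and in 7.15% of all windows. A match describes letters only, and binding was not measured. The sequences below are the 250 bases before the start, with p53 units and pairs in capitals, of Cdkn1a and Ccng1, which hold the pairs, of Mdm2 and Plk2, which differed between all 3 groups, and of Trp53, followed by the first 30 bases of Trp53 with CACGTG in capitals. The window of Plk2 held no match, nor did those of Mdm4 or that of the downstream start of Cdkn1a. Of the 2 Sesn1 windows, which are not printed, 1 held a single unit and the other no match. The printed sequences lie at chr17:29090729-29090978 on the plus strand, chr11:40755287-40755536 on the minus strand, chr10:117710759-117711008 on the minus strand, chr13:110394794-110395043 on the plus strand, and chr11:69580109-69580358 and chr11:69580359-69580388 on the plus strand. The pair of Cdkn1a spans 51 to 32 bases before the upstream start and the pair of Ccng1 spans 195 to 176 bases before its start.
Cdkn1a, upstream start: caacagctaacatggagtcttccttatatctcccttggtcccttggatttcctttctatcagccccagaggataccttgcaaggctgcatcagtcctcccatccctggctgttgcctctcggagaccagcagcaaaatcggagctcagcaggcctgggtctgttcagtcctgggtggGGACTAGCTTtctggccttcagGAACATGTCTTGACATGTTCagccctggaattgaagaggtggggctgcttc
Ccng1: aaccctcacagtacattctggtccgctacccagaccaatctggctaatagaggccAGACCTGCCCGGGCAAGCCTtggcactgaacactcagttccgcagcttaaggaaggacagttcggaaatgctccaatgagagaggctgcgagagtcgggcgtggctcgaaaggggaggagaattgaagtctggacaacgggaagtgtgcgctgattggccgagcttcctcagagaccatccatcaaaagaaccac
Mdm2: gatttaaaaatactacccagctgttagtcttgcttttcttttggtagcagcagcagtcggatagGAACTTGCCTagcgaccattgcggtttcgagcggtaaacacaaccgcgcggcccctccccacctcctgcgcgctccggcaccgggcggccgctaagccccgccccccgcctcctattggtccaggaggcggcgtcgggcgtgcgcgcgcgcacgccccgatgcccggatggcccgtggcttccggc
Plk2: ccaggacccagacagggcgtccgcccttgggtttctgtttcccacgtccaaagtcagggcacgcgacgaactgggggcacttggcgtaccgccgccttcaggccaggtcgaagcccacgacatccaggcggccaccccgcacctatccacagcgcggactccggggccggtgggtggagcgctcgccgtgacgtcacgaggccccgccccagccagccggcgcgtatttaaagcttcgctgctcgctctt
Trp53: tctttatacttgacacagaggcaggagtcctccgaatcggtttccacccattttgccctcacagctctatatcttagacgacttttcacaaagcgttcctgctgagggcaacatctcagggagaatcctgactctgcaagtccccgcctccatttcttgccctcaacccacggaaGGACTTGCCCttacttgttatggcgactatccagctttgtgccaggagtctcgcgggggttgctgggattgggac
Trp53, first bases: tttcccctccCACGTGctcaccctggctaa

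Library totals ran from 4165286 to 8872303 rounded counts. Myc, the manipulated gene, stood at 142 ± 4.36 CPM in the cells with 2 extra copies, 31.6 ± 0.913 in those with none and 13.3 ± 1.51 in the uninduced cells (SD, n = 3 each; CPM are TMM-scaled counts of a gene relative to the library total). All 10 ESC markers examined, Pou5f1 and Nanog among them, were expressed. Their summed level was 3760 to 3822 CPM in uninduced libraries, 3923 to 4008 in those with no extra copy and 3651 to 3833 in those with 2. Replicate 1 with 2 extra copies stood apart from the rest of its group, with a chi-square per degree of freedom of 2.67 and 3.02 against the others, where every other pair of replicates had 1.35 to 1.80. Markers of fibroblasts or feeder cells moved between the groups, with a sum over 10 genes of 80.8 to 86.0 CPM in uninduced libraries, 199 to 224 in those with no extra copy and 125 to 133 in those with 2; Dcn, Lum and Postn stayed under 1 CPM in all libraries. The 7 trophectoderm-list genes summed to 148 to 160.2 CPM, 213 to 238 and 187 to 202 in the same order, with Elf5 under 1 CPM in all libraries. Neural-list genes summed to 186 to 216 CPM over all libraries, extraembryonic endoderm genes to 10.1 to 20.96 and primitive streak or mesoderm genes to 3.77 to 6.63. The part of these cell markers in the results was not tested. In sorted bulk samples, a change in the share of some cells and a change of RNA per cell cannot be told apart.

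Of Mdm2 and the 7 target genes, 6 were higher than in uninduced cells with 2 extra copies of Myc and 4 with no extra copy, while Trp53 itself did not rise in either. With 2 extra copies against uninduced cells 6 of the 10 genes rose and 0 fell: Mdm2, Cdkn1a, Ccng1, Plk2, Trp53inp1 and Perp. With no extra copy against uninduced cells 4 rose, Mdm2, Cdkn1a, Plk2 and Perp, and Trp53 and Zmat3 fell. Between the induced populations 5 were higher with 2 extra copies, Mdm2, Ccng1, Plk2, Trp53inp1 and Zmat3, and 0 were lower. Calls are those of edgeR's quasi-likelihood test, with p-values adjusted over all 13424 genes and a threshold of 0.05. The same test called 25% of all genes with 2 extra copies against uninduced (12.8% higher, 12.1% lower), 13.5% with no extra copy against uninduced (7.1% higher, 6.39% lower) and 16% between the induced populations (8.3% higher, 7.7% lower). The median log2 change of the 10 genes was 0.23, 0.06 and 0.15 in these comparisons, beside -0.01, 0.00 and -0.01 for all genes. The changes were small, with none of the 10 genes reaching 1.5-fold in any comparison.

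**Figure D1:**
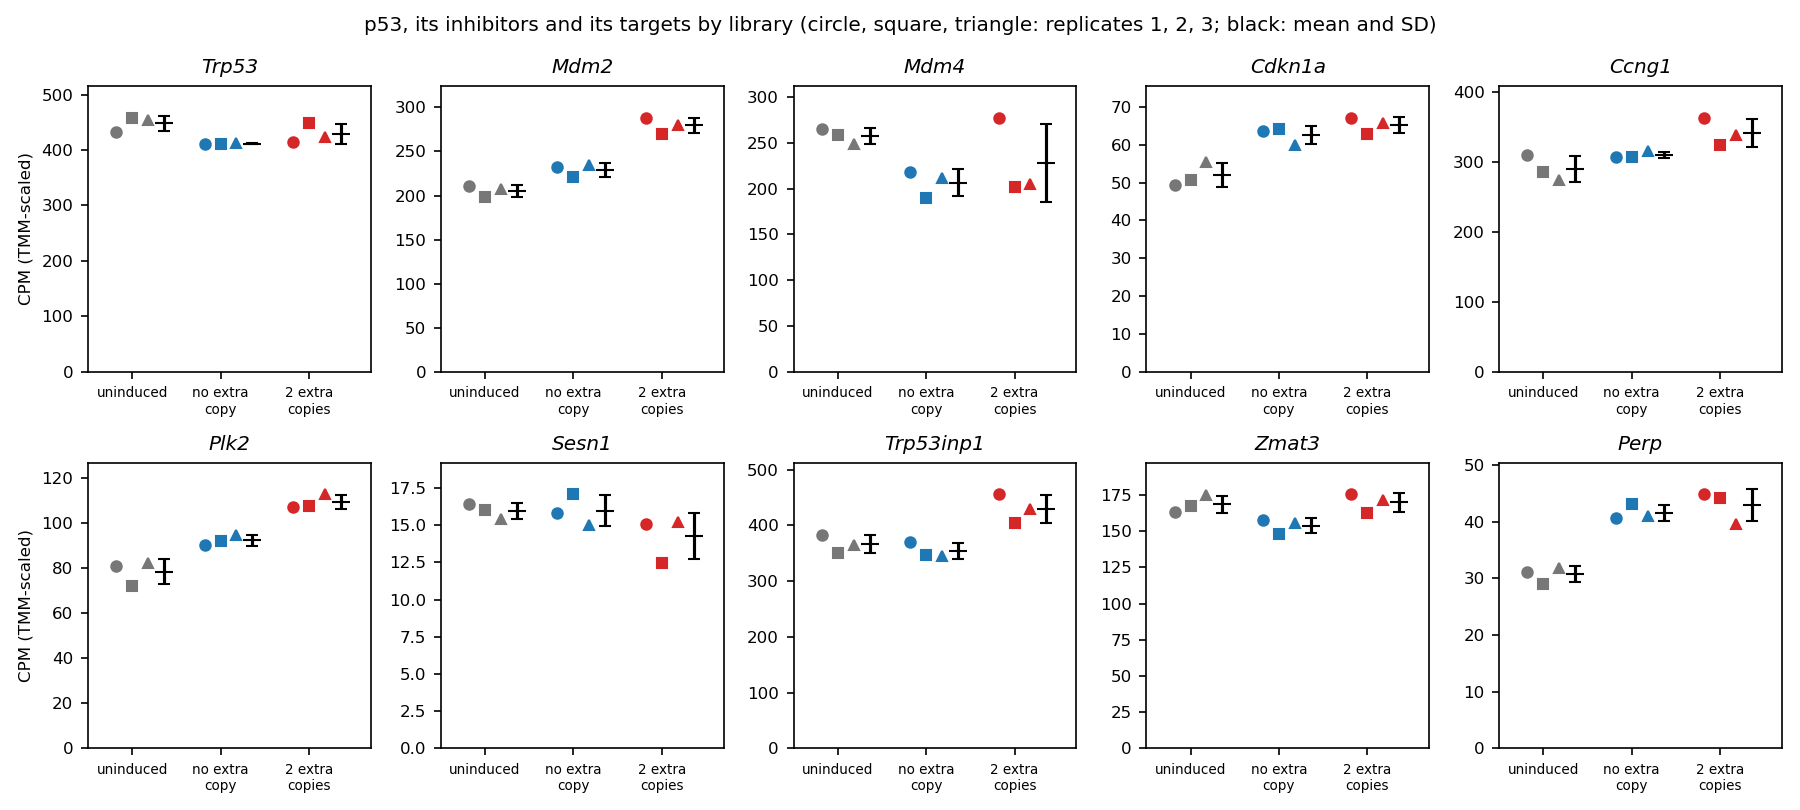
Levels of the 10 genes in each library, in TMM-scaled CPM on axes that start at 0 and differ between panels; symbols are the 3 libraries of each group and black bars the mean and SD. Mdm2 and Plk2 rise in steps from uninduced cells to no extra copy to 2 extra copies, Cdkn1a and Perp are higher in both induced populations, and Mdm4 has a high replicate 1 (278 CPM) with 2 extra copies.

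Trp53 (ENSMUSG00000059552; GRCm38 chromosome 11, 69580359 to 69591873, plus strand) was abundant in every library. Its levels were 433, 458 and 453 CPM in uninduced cells, 411, 410.2 and 412 with no extra copy and 415, 449 and 423 with 2 extra copies. All libraries with no extra copy lay below all uninduced libraries, and those with 2 extra copies overlapped the uninduced ones. The level with no extra copy fell by 0.12 on the log2 scale against uninduced cells (SE 0.0375, adjusted p = 0.0218 in edgeR), a 1.09-fold difference. The call was lost in DESeq2 (adjusted p = 0.0698) and in edgeR when any library with no extra copy, or uninduced replicate 2 or 3, was left out (adjusted p = 0.0568 to 0.123). With 2 extra copies the ratio to uninduced cells was 0.956 (95% interval 0.909 to 1.01) and to cells with no extra copy 1.04 (0.991 to 1.10), neither past the threshold. A processed pseudogene copy, Trp53-ps, matches 71.7% of a Trp53 transcript at 94.1% identity, so some reads could come from it.

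Mdm2 (ENSMUSG00000020184; chromosome 10, 117688875 to 117710758, minus strand), the ligase that marks p53 for degradation, differed between all 3 groups. It stood at 211, 198 and 208 CPM in uninduced cells, 232, 221 and 235 with no extra copy and 288, 270.3 and 280.0 with 2 extra copies. The 3 groups did not overlap. In a given comparison of 2 groups, 30.6% to 38.5% of all genes also had no overlap, and the share for all 3 groups was not computed. Mdm2 with 2 extra copies was 1.36-fold above uninduced cells (log2 0.45, SE 0.0410, adjusted p = 5.15e-10 in edgeR) and 1.22-fold above cells with no extra copy (log2 0.29, SE 0.0412, adjusted p = 5.55e-06). The step from uninduced cells to no extra copy was 1.11-fold (adjusted p = 0.010 in edgeR). That smaller step had an adjusted p of 0.0515 to 0.0944 when replicate 1 or 3 with no extra copy or uninduced replicate 2 was left out, and 0.0533 in DESeq2.

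Mdm4 (ENSMUSG00000054387; chromosome 1, 132959484 to 133030561, minus strand), which inhibits p53 without degrading it on its own, did not follow Mdm2. Its levels were 266, 258 and 249 CPM in uninduced cells, 218, 189.6 and 212 with no extra copy and 278, 202 and 205 with 2 extra copies. All libraries with no extra copy lay below the uninduced ones, and with 2 extra copies replicates 2 and 3 did so while replicate 1 lay above all of them. With all 9 libraries no comparison was past the threshold: log2 -0.33 (SE 0.131, adjusted p = 0.186 in edgeR) for no extra copy, and log2 -0.18 (SE 0.130, adjusted p = 0.392) for 2 extra copies, both against uninduced cells. Without replicate 1 with 2 extra copies, the changes against uninduced cells were -0.33 (adjusted p = 1.06e-07) and -0.32 (adjusted p = 1.13e-06). The difference between the induced populations was then 0.01 (adjusted p = 0.923 in edgeR). With no extra copy the change was also past the threshold with all its libraries in limma-voom (-0.33, adjusted p = 0.0150), in edgeR on those 2 groups alone (-0.33, adjusted p = 1.59e-06) and with the trend over length removed and a replicate block (-0.28, adjusted p = 0.0343). In 16 of the 20 alternatives this change was not called, as in the main fit. Mdm4 has 14798 annotated exonic bases, the most of the 10 genes, and that library also differed from the others of its group in its trend over length (slope 0.0058 log2 units per doubling of exonic length, against -0.038 and -0.044). The log2 difference of Mdm4 between the induced populations was 0.15 with all 9 libraries, and 0.19 with each library's trend over length removed. Whether the trend has a part in the Mdm4 level of that library was not tested further. A processed pseudogene copy, Mdm4-ps, matches 68.7% of an Mdm4 transcript at 92.2% identity.

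**Figure D2:**
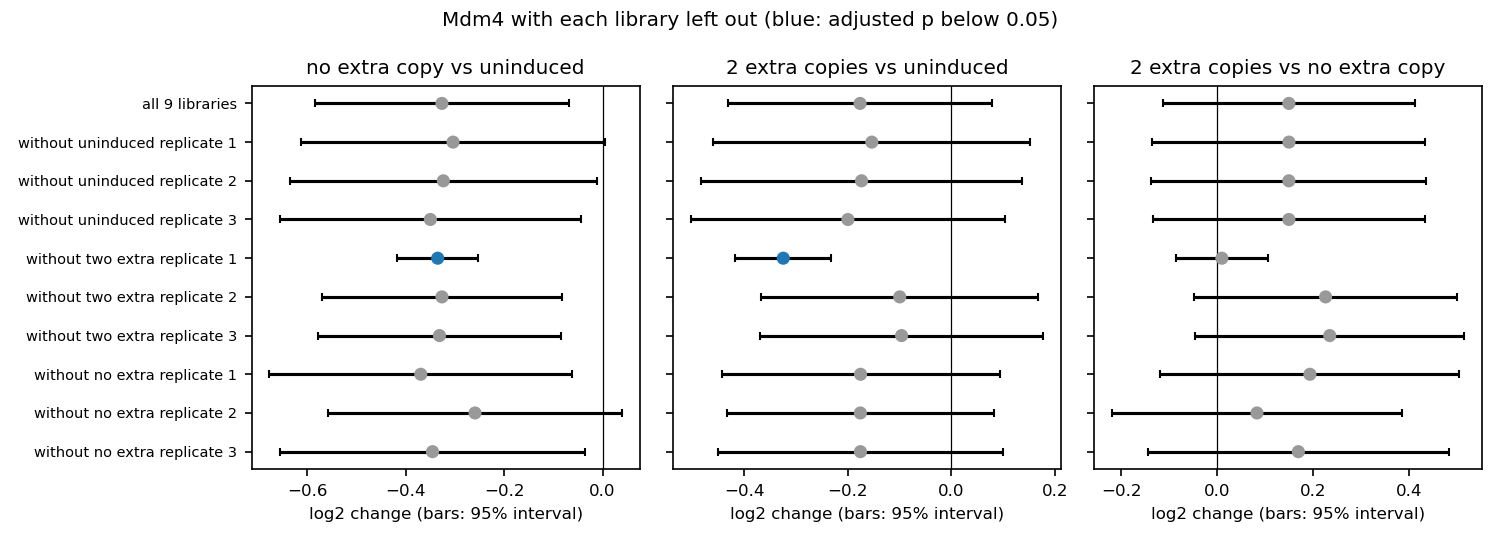
Log2 change of Mdm4 (horizontal axis) in the 3 comparisons with all 9 libraries and with each library left out in turn (rows); points are fitted changes, bars 95% intervals, and blue marks an adjusted p below 0.05. Of the 9 libraries left out, replicate 1 with 2 extra copies is the one without which Mdm4 is called, at -0.33 and -0.32 against uninduced cells.

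On a scale corrected for transcript length (TPM), the Mdm2 level was 0.520 ± 0.0376 of the Trp53 level with 2 extra copies, 0.444 ± 0.0138 with none and 0.365 ± 0.0217 in uninduced libraries (SD, n = 3). The range over libraries was 0.479 to 0.553, 0.428 to 0.454 and 0.344 to 0.387, without overlap. Mdm2 stood at 3.63 ± 0.525 times the Mdm4 level with 2 extra copies (range 3.02 to 3.97), 3.24 ± 0.144 times with none and 2.32 ± 0.102 times in uninduced libraries. These ratios follow from the levels above and carry no test of their own.

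Among the arrest genes, Cdkn1a and Plk2 were higher in both induced populations, and Ccng1 with 2 extra copies. Cdkn1a (ENSMUSG00000023067; chromosome 17, 29090976 to 29100727, plus strand) encodes p21, the inhibitor of cyclin-dependent kinases through which p53 stops the cell cycle in G1. Its levels were 49.5, 50.8 and 55.6 CPM in uninduced cells, 63.6, 64.2 and 60.0 with no extra copy and 67.1, 62.9 and 65.6 with 2 extra copies. Both induced populations lay above all uninduced libraries and overlapped each other. The rise over uninduced cells was 1.21-fold with no extra copy (log2 0.28, SE 0.0651, adjusted p = 0.00280 in edgeR) and 1.26-fold with 2 extra copies (log2 0.33, SE 0.0649, adjusted p = 0.000229). Both calls held in all 20 alternatives. Between the induced populations the ratio was 1.04, with a 95% interval of 0.950 to 1.13. The deposited counts pool its transcripts, so the upstream start with the p53 pair shown above and the downstream start were not told apart.

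Plk2 (ENSMUSG00000021701; chromosome 13, 110395046 to 110400844, plus strand), a polo-like kinase that p53 induces and that acts in G1 and centriole duplication, showed the same stepwise order as Mdm2. It stood at 80.8, 72.0 and 82.0 CPM in uninduced cells, 90.1, 92.0 and 94.8 with no extra copy and 107, 108 and 113 with 2 extra copies. No library of a group overlapped another group. In a given comparison of 2 groups, 30.6% to 38.5% of all genes were also without overlap. Plk2 with 2 extra copies was 1.40-fold above uninduced cells (log2 0.48, SE 0.0548, adjusted p = 3.91e-08 in edgeR), the largest log2 change of the 10 genes in that comparison, and 1.19-fold above cells with no extra copy (adjusted p = 0.00169). The rise from uninduced cells to no extra copy was 1.18-fold (adjusted p = 0.00310 in edgeR), with an adjusted p of 0.0572 without uninduced replicate 2.

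Ccng1 (ENSMUSG00000020326; chromosome 11, 40748552 to 40755311, minus strand) encodes cyclin G1, a p53 target that recruits a phosphatase to Mdm2. Its levels were 310.0, 285 and 275 CPM in uninduced cells, 308, 307 and 315 with no extra copy and 363, 324 and 338 with 2 extra copies. All libraries with 2 extra copies lay above the other 6, and the other groups overlapped. The rise with 2 extra copies was 1.18-fold over uninduced cells (log2 0.24, SE 0.0440, adjusted p = 0.000142 in edgeR) and 1.10-fold over cells with no extra copy (adjusted p = 0.0244). The second call was lost with library size alone (adjusted p = 0.119), in DESeq2 (0.0651) and in edgeR without replicate 1 or 2 with no extra copy (0.0855 and 0.101). With no extra copy the ratio to uninduced cells was 1.07 (log2 0.09, adjusted p = 0.176 in edgeR), and the change was called without uninduced replicate 1 (log2 0.14, adjusted p = 0.0430).

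The genes of the stress and metabolic arm divided. Trp53inp1 (ENSMUSG00000028211; chromosome 4, 11156431 to 11174379, plus strand), whose protein promotes p53 phosphorylation and takes part in autophagy, was at 383, 351 and 364 CPM in uninduced cells, 371, 346 and 344 with no extra copy and 456, 405 and 429 with 2 extra copies. The libraries with 2 extra copies lay above the other 6, which overlapped. Trp53inp1 was 1.174-fold above uninduced cells (log2 0.23, SE 0.0429, adjusted p = 0.000143 in edgeR) and 1.21-fold above cells with no extra copy (log2 0.28, SE 0.0435, adjusted p = 2.77e-05). Both calls held in all 20 alternatives. With no extra copy its ratio to uninduced cells was 0.967 (95% interval 0.911 to 1.03), which leaves out a rise as large as that with 2 extra copies.

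Sesn1 (ENSMUSG00000038332; chromosome 10, 41809935 to 41908424, plus strand), a sestrin that restrains the growth kinase mTORC1, had the lowest level of the 10 genes and the fewest counts, 63 to 153 per library. It stood at 16.4, 16.0 and 15.4 CPM in uninduced cells, 15.8, 17.1 and 15.0 with no extra copy and 15.1, 12.5 and 15.2 with 2 extra copies. Its log2 changes were 0.02, -0.16 and -0.18 for no extra copy against uninduced, 2 extra copies against uninduced and 2 extra copies against none, with standard errors of 0.115 to 0.121. None was past the threshold. The ratio of 2 extra copies to uninduced was 0.897, with a 95% interval of 0.764 to 1.05 that does not reach the folds of Mdm2 or Plk2.

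Zmat3 and Perp went different ways. Zmat3 (ENSMUSG00000027663; chromosome 3, 32334792 to 32366014, minus strand) encodes an RNA-binding p53 target that regulates splicing. It was at 163, 167 and 175 CPM in uninduced cells, 158, 148 and 156 with no extra copy and 175, 162 and 172 with 2 extra copies. The libraries with no extra copy were the lowest and overlapped neither of the other groups, which overlapped each other. Zmat3 fell by 0.13 on the log2 scale with no extra copy against uninduced cells (adjusted p = 0.0399 in edgeR) and was 1.11-fold higher with 2 extra copies than with none (adjusted p = 0.0221). The first call was lost in 9 of 20 alternatives (highest adjusted p = 0.250, without replicate 2 with no extra copy) and the second in 4 of 20 (highest adjusted p = 0.163, without the same library). With 2 extra copies its ratio to uninduced cells was 1.01 (95% interval 0.951 to 1.07).

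Perp (ENSMUSG00000019851; chromosome 10, 18845020 to 18857073, plus strand) encodes a membrane protein of desmosomes that p53 and p63 induce. It was at 31.2, 29.1 and 31.9 CPM in uninduced cells, 40.6, 43.2 and 41.0 with no extra copy and 44.9, 44.3 and 39.7 with 2 extra copies. As with Cdkn1a, both induced populations lay above all uninduced libraries and overlapped each other. The rise over uninduced cells was 1.36-fold with no extra copy (log2 0.45, SE 0.0794, adjusted p = 0.000118 in edgeR) and 1.40-fold with 2 extra copies (log2 0.48, SE 0.0795, adjusted p = 2.44e-05), and both held in all 20 alternatives. Between the induced populations the ratio was 1.02 (95% interval 0.921 to 1.14). The epithelial keratin genes Krt8 and Krt18 of the trophectoderm list were also higher in both induced populations than in uninduced cells. The rise was 2.75-fold and 2.97-fold with no extra copy and 1.85-fold and 2.00-fold with 2. Unlike Perp, both were lower with 2 extra copies than with none (1.48-fold and 1.49-fold). The other 2 tested genes of that list, Tfap2c and Eomes, were not called in either comparison with uninduced cells. Their log2 changes were 0.11 and 0.38 with no extra copy and 0.12 and -0.62 with 2. Krt8 and Krt18 were picked after their values were seen, and their part in the level of Perp was not tested.

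**Figure D3:**
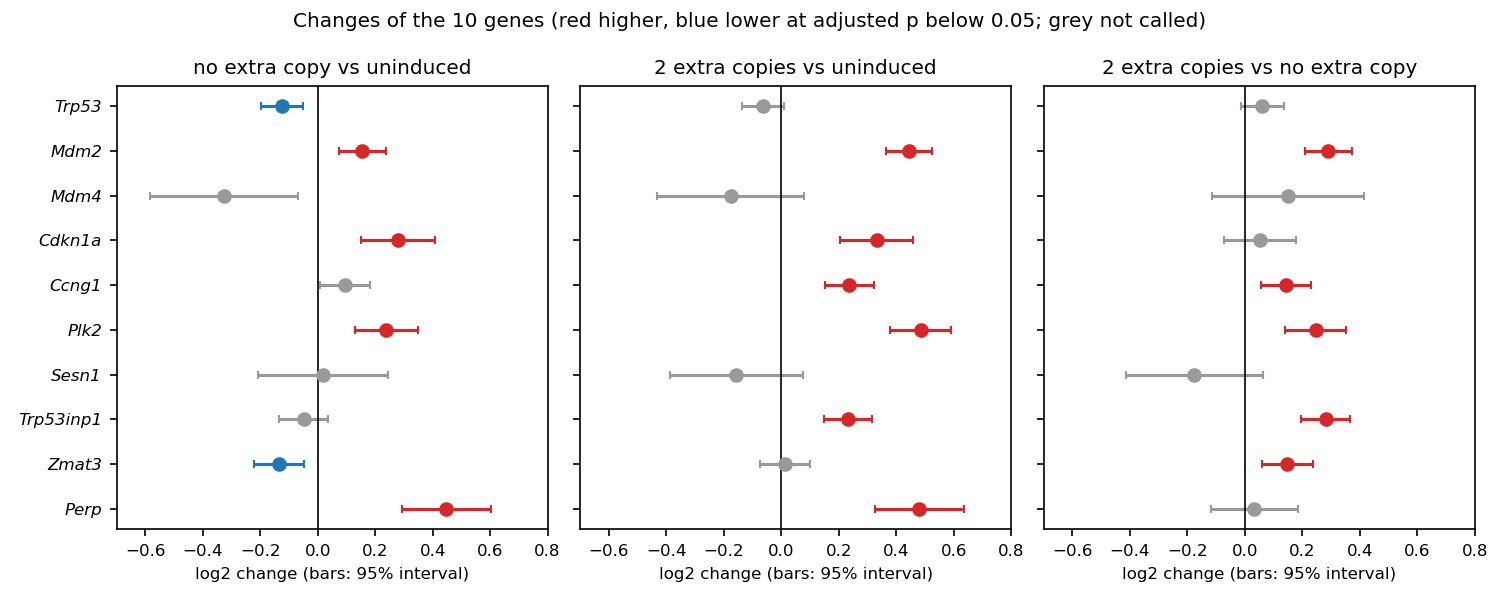
Fitted log2 changes (horizontal axis) of the 10 genes in the 3 comparisons, with 95% intervals as bars; red marks genes called higher, blue genes called lower and grey those not called. Cdkn1a and Perp are called in the left and middle panels only, Trp53inp1 in the middle and right, and Mdm2 and Plk2 in all 3.

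The 10 genes thus fell into several orders of level, each read from the tests above. For Mdm2 and Plk2 all 3 steps were called. For Cdkn1a and Perp the levels of the induced populations were above uninduced cells and not told apart from each other. For Ccng1 and Trp53inp1 the cells with 2 extra copies were above both other groups, which were not told apart. Zmat3 was lower with no extra copy than in both other groups, which were not told apart. Trp53 was lower with no extra copy than in uninduced cells, and its other differences were not called. No difference of Mdm4 or Sesn1 was called with all 9 libraries in the main fit. Per length, the order of level in uninduced cells was Trp53 at 366 ± 5.87 TPM, Ccng1 at 273 ± 21.6, Trp53inp1 at 187 ± 10.7 and Mdm2 at 133 ± 5.80. Below them Plk2 (57.5 ± 4.30), Mdm4 (57.4 ± 2.82), Perp (51.9 ± 2.61), Zmat3 (48.6 ± 1.07) and Cdkn1a (48.2 ± 2.34) formed a group in which the libraries of neighbours in this order overlapped, except those of Mdm4 and Perp, and Sesn1 was last at 13.2 ± 0.650 TPM.

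Over the 9 libraries, the highest Pearson r of log2 levels among the 10 genes were 0.96 for Mdm2 and Plk2, 0.93 for Cdkn1a and Perp, and 0.90 for Mdm2 and Ccng1. Other pairs were low or negative: Mdm2 had an r of 0.26 with Zmat3 and -0.58 with Sesn1, and Cdkn1a -0.10 and -0.30. Trp53 had an r of -0.67 with Perp, -0.63 with Cdkn1a, -0.38 with Mdm2, -0.09 with Trp53inp1, 0.34 with Mdm4 and 0.47 with Zmat3. These values describe 9 points that share 3 group means and library scaling. Likeness was ranked over 9155 genes that averaged 10 CPM or more and had a standard symbol (no Gm, Rik, AC or AL names). The 5 most like Mdm2 were Ddx18 (r = 0.99), Rpusd2 (0.98), Pus7 (0.98), Hspd1 (0.98) and Zscan4b (0.98). The 5 most like Cdkn1a were Crip1 (0.96), Bod1 (0.96), Bri3 (0.96), Aen (0.95) and Sdhd (0.95). Aen, a nuclease, is itself a p53 target.

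A list of 40 other p53 targets outside the BCL2 family was examined, of which 38 were tested. Against uninduced cells 19 rose, 2 fell and 17 were not called with 2 extra copies, where 12.8% of all genes were called higher and 12.1% lower. With no extra copy 11 rose, 3 fell and 24 were not called, beside 7.1% and 6.39% of all genes. Between the induced populations 6 were higher with 2 extra copies, 3 were lower and 29 were not called, beside 8.3% and 7.7% of all genes. The median log2 change was 0.16, 0.06 and 0.06, beside -0.01, 0.00 and -0.01 for all genes. With 2 extra copies against uninduced cells Ptp4a3, a phosphatase, rose 1.55-fold (adjusted p = 5.98e-11 in edgeR), Dcxr, a carbonyl reductase, 1.58-fold, Ei24 1.22-fold and Gtse1 1.16-fold. With no extra copy Steap3, a metalloreductase, rose 1.58-fold and Sfn, the G2 arrest protein 14-3-3 sigma, 1.53-fold and Ei24 1.16-fold, while the sestrin Sesn2 was 1.21-fold lower (adjusted p = 9.38e-06 in edgeR). Between the induced populations the genes with the smallest p were Psrc1 (1.26-fold higher with 2 extra copies), Ptp4a3 (1.30-fold), Gtse1 (1.19-fold) and Ckap2 (1.22-fold); Psrc1, Gtse1 and Ckap2 encode spindle and microtubule proteins. Of the 14 calls with no extra copy against uninduced cells, the number was 6 in DESeq2 and 9 without replicate 2 with no extra copy. Of the p53 relatives, Trp63 stayed under 1 CPM, and Trp73 rose from 13.7 ± 1.12 to 21.3 ± 1.70 CPM with 2 extra copies against uninduced (adjusted p = 0.000183 in edgeR).

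Of 26 regulators of p53, all tested, 8 were higher, 2 lower and 16 not called with 2 extra copies against none, where 8.3% of all genes were called higher and 7.7% lower. Against uninduced cells 6 rose and 4 fell with 2 extra copies, beside 12.8% and 12.1% of all genes, and 2 rose and 5 fell with no extra copy, beside 7.1% and 6.39%. The list's median log2 changes were 0.07, 0.04 and -0.07 in this order, and those of all genes -0.01, -0.01 and 0.00. Gnl3, or nucleostemin, a nucleolar GTPase that binds Mdm2, was 1.25-fold higher with 2 extra copies than with none (305 ± 7.64 against 245 ± 10.4 CPM, adjusted p = 6.54e-07 in edgeR). Smyd2, a methyltransferase that acts on p53, was 1.22-fold, Aurka, a mitotic kinase, 1.20-fold and Npm1, the nucleolar protein nucleophosmin, 1.14-fold higher; Npm1 has many pseudogene copies, so its value is uncertain. Against uninduced cells, Smyd2 and Gnl3 rose 1.31-fold and 1.20-fold with 2 extra copies, while Trp53bp1 and Hipk2, which support p53 activity, were 1.14-fold and 1.32-fold lower. Tbx3 rose 1.46-fold with no extra copy, where the damage kinases Atr and Chek1 and the kinase Aurka were 1.42-fold, 1.16-fold and 1.15-fold lower. In place of the 10 list genes called with 2 extra copies against none, 6 were called without replicate 2 or 3 with 2 extra copies or replicate 2 with none. Against uninduced cells, 2 extra copies gave 6 in place of 10 without uninduced replicate 1 or replicate 3 with 2 extra copies, and no extra copy gave 3 in place of 7 in DESeq2 and without uninduced replicate 2, and 4 without replicate 1 or 2 with no extra copy.

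A list of 21 genes held cyclins, kinases, pocket proteins and others that p21 acts on or through, and the separate inhibitor genes Cdkn1b and Cdkn1c. With 2 extra copies against none, 5 were higher, 6 lower and 10 not called, where 8.3% of all genes were called higher and 7.7% lower. The lower calls numbered 3, with 5 higher, in DESeq2, with RLE factors, on the 2 groups alone and without uninduced replicate 2 or 3, replicate 2 or 3 with 2 extra copies, or replicate 2 or 3 with none; without replicate 1 with 2 extra copies they were 3, with 6 higher. Against uninduced cells 5 rose and 2 fell with 2 extra copies, beside 12.8% and 12.1% of all genes, and 5 rose and 5 fell with no extra copy, beside 7.1% and 6.39%. The median log2 changes were 0.04, 0.02 and 0.03 in this order, beside -0.01, -0.01 and 0.00 for all genes. Cdk1 and Ccnb1, the mitotic kinase and its cyclin, were 1.29-fold and 1.25-fold higher with 2 extra copies than with none (adjusted p = 1.48e-07 and 1.75e-07 in edgeR). Cdkn1c, the p57 inhibitor related to p21, was 1.67-fold lower there, and it rose 1.53-fold with no extra copy against uninduced cells. Ccnd3, the cyclin D3 gene, went the same way, 1.33-fold lower with 2 extra copies than with none and 1.35-fold higher with no extra copy than in uninduced cells (adjusted p = 2.09e-08 in edgeR). Cdkn1b, the p27 inhibitor, was lower than in uninduced cells with no extra copy (1.38-fold) and with 2 extra copies (1.43-fold), against the direction of Cdkn1a. Ccne1, the cyclin E1 gene, rose 1.20-fold and 1.26-fold in the same comparisons, and Cdk1 rose 1.21-fold and E2f4 1.14-fold with 2 extra copies against uninduced. In place of the 10 list genes called with no extra copy against uninduced, DESeq2 called 5, and edgeR called 5 or 6 without uninduced replicate 2 or 3 or any library with no extra copy.

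**Figure D4:**
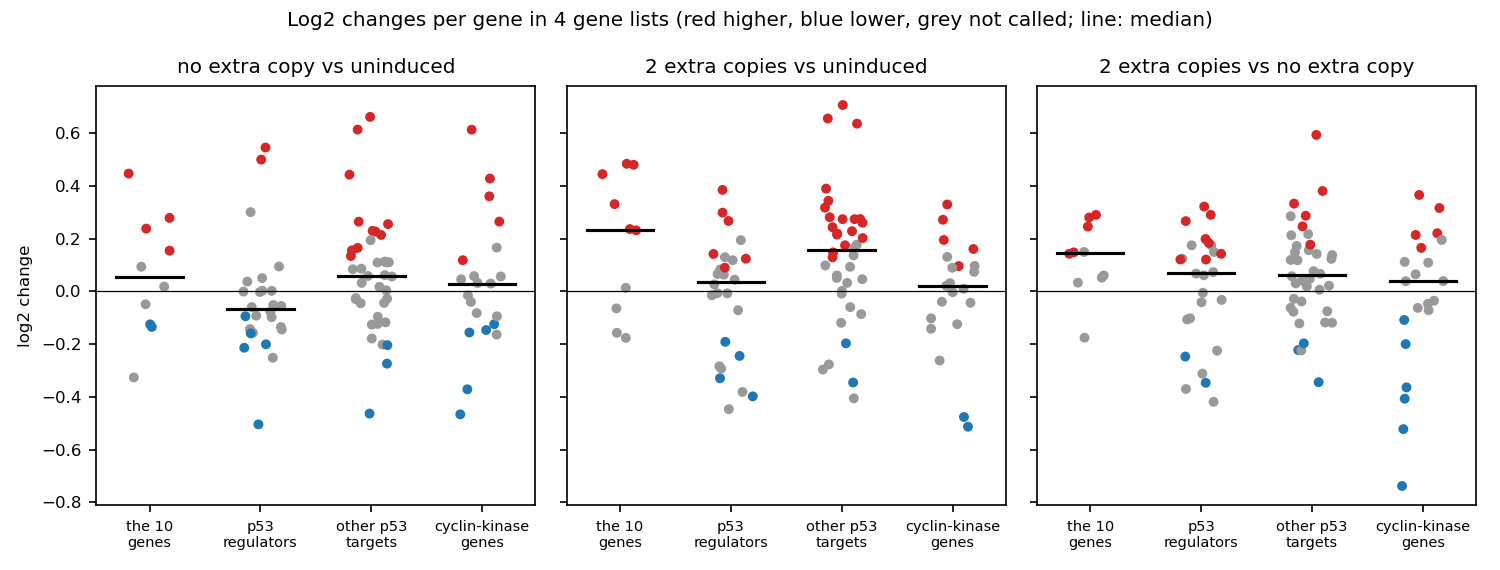
Log2 change of each tested gene (vertical axis) in the 10 genes and in the lists of p53 regulators, other p53 targets and cyclin-kinase genes, for the 3 comparisons; red marks genes called higher, blue genes called lower, grey those not called, and lines are medians. The median of the other p53 targets is 0.16 with 2 extra copies against uninduced cells, and the cyclin-kinase genes spread to both sides.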

How the data were processed

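Single-end sequencing (75 bp) of total RNA from 9 sorted ESC libraries is described in the labels. The authors deposited expected counts for each gene, made with RSEM 1.17 against GRCm38 and annotation release 84, per the file headers and, for the tool, the submitters' processing notes. Picard, cutadapt and limma also appear in those notes with no role stated, and an aligner was not given in the sources used here. Expected counts were rounded. After edgeR's filterByExpr, 13424 genes holding 99.8% of counts were tested with the robust quasi-likelihood fit of edgeR 4.0.16 (R 4.3.3) on all 9 libraries, with a mean per group and Benjamini-Hochberg adjustment across those genes. CPM are TMM-scaled. TPM used the union of exons in GENCODE M21 (GRCm38), also the source of symbols and coordinates. Standard errors are the absolute change over the square root of F, and 95% intervals use a normal approximation. Near copies (at least 90% identity) were sought with minimap2 2.31-r1302. No exon of the 10 genes overlapped an exon of another gene with a row in the deposited table. Genes without a row were not checked for overlap. AC167363.2, which has no row, matches 12.6% of a Cdkn1a transcript at 100% identity. The fit was tested on simulated data.

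All 10 genes were named in each comparison, and from each list up to 4 called genes per comparison with the smallest p; the most similar genes were ranked by Pearson r of log2(CPM + 1). The 10 genes and the lists were chosen with earlier results of these data known. Alternatives were DESeq2 1.42.0, limma-voom (limma 3.58.1), other scaling, other filters, pairs of groups alone, a replicate block, removal of each library's trend over length, and leaving out each library. Between replicates the counts varied beyond sampling noise, at 1.35 to 3.02 in chi-square over its degrees of freedom.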

Additional observations from a re-analysis of the deposited data

How the results depend on the processing

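Of 600 refits of the 10 genes' changes (20 alternatives, 10 genes, 3 comparisons), 561 kept direction and side of the threshold, 28 lost a call, 6 gained one and 5 changed sign. The sign changes were all of values near 0: Perp between the induced populations (-0.0018 on the log2 scale with library size alone), Zmat3 with 2 extra copies against uninduced (-0.0064 with library size alone, and -0.0086 to 0.044 with 1 library left out, negative without uninduced replicate 1) and Sesn1 with no extra copy against uninduced (-0.046 to 0.051 with 1 library left out, negative without replicate 2 with no extra copy and, at -0.0056, without uninduced replicate 3). Between the induced populations 3 of the 10 genes were called in DESeq2 and 3 with library size alone; with no extra copy against uninduced DESeq2 called 3. Leaving out 1 library gave 3 to 5 called genes of the 10 between the induced populations, 6 to 7 with 2 extra copies against uninduced and 2 to 7 with no extra copy against uninduced; 3 came without replicate 2 lacking an extra copy in the first, and in the last 2 came without uninduced replicate 2 and 3 without replicate 3 of those with no extra copy. The cause of these shifts was not tested. Over all genes the calls were 1397 to 2564, 2453 to 3719 and 1177 to 2201, against 2148, 3350 and 1811 with all libraries (1397 and 1177 were without replicate 2 with no extra copy), and DESeq2 called 1061, 1889 and 806. With library size alone 36.3% of calls between the induced populations were higher, against 51.9%. With the replicate block 5, 6 and 6 of the 10 genes were called and 2233, 3440 and 1933 of all genes. Same-numbered libraries had correlations of -0.081 to 0.081 in their deviations from the group means. With 3 libraries per group, these values cannot tell whether same-numbered libraries came from the same culture. With each library's trend over length removed, 5, 6 and 5 of the 10 genes were called, and with the replicate block added 5, 6 and 6. The lists of p53 regulators, other targets and cyclin-kinase genes had 3, 6 and 5 calls in DESeq2 with no extra copy against uninduced, against 7, 14 and 10 in edgeR. Low counts limit Sesn1, at 63 to 153 per library.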
